A study of Mus musculus with 5 samples.

Results

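The Mediator subunit genes are the 33 protein-coding mouse genes whose symbol begins with Med and a digit, together with Cdk8, Cdk19 and Ccnc, out of 21631 protein-coding genes on the autosomes and chromosome X. The list was chosen by symbol, but it was selected for study on the PU.1 sites seen near these genes' ends, so those sites are described and not tested. They were examined for sites that gained binding of PU.1, an ETS-family transcription factor of myeloid and B cells, when PU.1 was restored in a mouse acute myeloid leukaemia. The leukaemia, AML-246, is of the C57BL/6 strain, lacks p53 (p53-/-) and carries a GFP-linked short hairpin RNA against PU.1, and both groups share these features. Spleen cells of leukaemic recipient mice were taken without treatment (PU.1 low, 2 libraries) or after 2 days of doxycycline, written Dox in the labels (PU.1 high, 3 libraries), which shuts the hairpin off. The libraries are named technical replicates, and PU.1 was precipitated with antibody T-21 and the DNA sequenced (ChIP-seq). The deposited result is 1 list of 11111 sites for all 5 libraries, set as PU.1 high against PU.1 low, of which 11106 lie on the chromosomes used. Each site is the summit of a peak with a score on a −log10 scale. It says how surely the site was called, not by how many fold binding changed. The list has no value per library, so read depth and the spread between libraries are unknown and no difference between the treatments is tested here. It has no expression values either, so the cell type could not be checked on markers.

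Mediator is a large protein complex that passes signals from DNA-bound transcription factors to RNA polymerase II at promoters. Its head and middle modules contact the polymerase, the tail is bound by many activators, and a detachable kinase module, built of Cdk8 or Cdk19, cyclin C, Med12 and Med13 or their paralogues, can block or tune that contact. In blood cells Mediator serves lineage factors at their enhancers, and its kinases have been studied as drug targets in leukaemia.

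About as many members had a PU.1 site within 10 kb of a gene end as did not. Such a site was found at 16 of the 33 (48.5%, 95% Wilson interval 32.5 to 64.8), against 22.4% of all protein-coding genes. Within 1 kb the count was 6 of 33 (18.2%, interval 8.61 to 34.4), against 6.41% of all genes, and within 100 bp it was 1 of 33 (3.03%, interval 0.537 to 15.3), against 2.13%. The group was put together with these counts known, so they describe the list and were given no test, and the intervals cover counting error only. A site inside the gene body lay in 11 members (33.3%), against 16.6% of all genes. At 50 kb the counts were 23 of 33 members (69.7%) and 49.5% of all genes. The median distance from a member to its nearest site was 15.5 kb, and that of the other protein-coding genes was 51.2 kb. Gene length and crowding were close in both sets, with median lengths of 18.0 and 17.3 kb and a median of 4 other protein-coding genes within 100 kb in each.

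**Figure D1:**
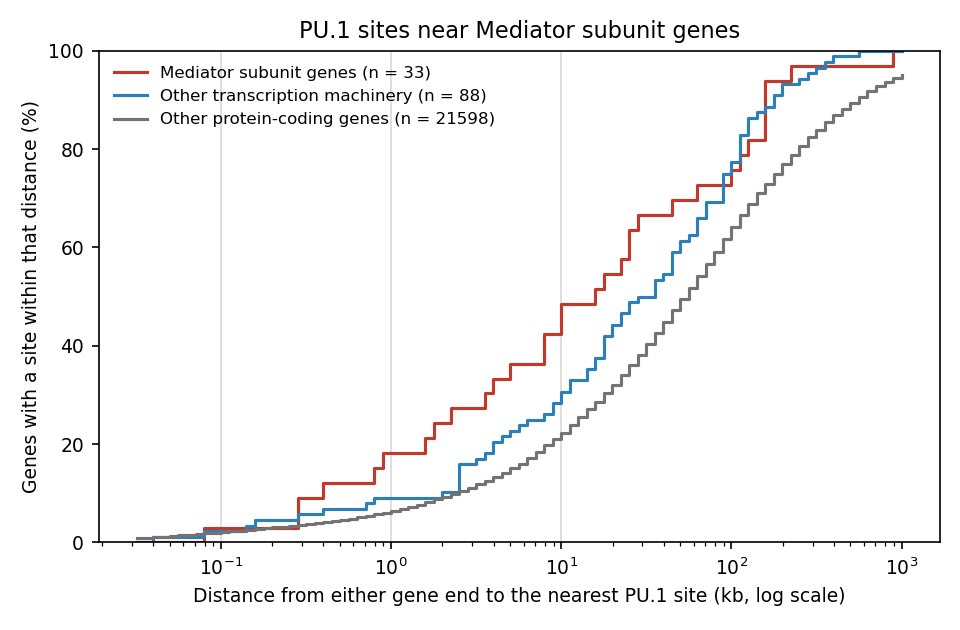
Share of genes (vertical axis, %) that have a PU.1 site within a given distance of either gene end (horizontal axis, kb, log scale), for the 33 Mediator subunit genes, 88 other transcription machinery genes and the 21598 other protein-coding genes. Vertical lines stand at 100 bp, 1 kb and 10 kb, where the Mediator line is at 3.03%, 18.2% and 48.5%.

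Many of these sites lie closer to a gene other than the member. The 16 members had 21 sites within 10 kb, 7 inside the member and 14 outside it. For 12 of the 21, an end of another protein-coding gene was nearer, and for 9 the member's own end was the nearest. With each site given only to the gene with the nearest end, 8 of 33 members (24.2%) kept a site within 10 kb, against 16.5% of all genes under the same rule. Those 8 were Med6, Med11, Med13l, Med16, Med26, Med29, Med30 and Cdk19. With sites scoring 10 or more only, 7 members (21.2%) had one within 10 kb, against 9.08% of all genes, and 1 (3.03%) had one within 1 kb, against 2.05%.

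Scores at the members covered the usual range. The 21 sites within 10 kb had a median score of 8.78 (2.63 to 18.5), and the 4486 other sites within 10 kb of a protein-coding gene had one of 8.35 (quartiles 5.71 and 11.7). The 6 sites within 1 kb of a member's end had a median of 4.56, and 4 of them were below 7.71, the median of the 1263 other sites at that distance. Of the 6, 1 (16.7%), at Med8, scored at least 10, as did 399 of the 1263 other sites (31.6%). Scores come from the same contrast that chose the members and were not tested.

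**Figure D2:**
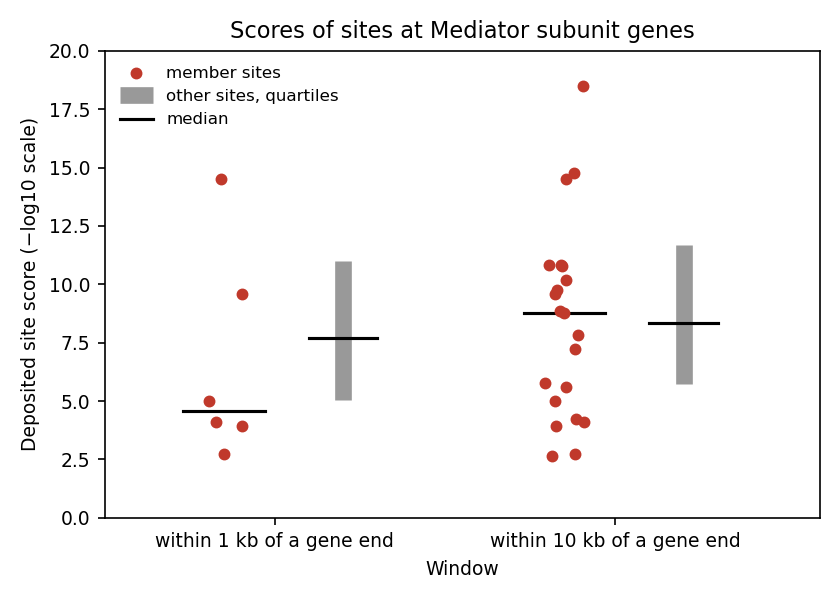
Deposited site scores (vertical axis, −log10 scale) of sites within 1 kb and within 10 kb of a gene end. Points are the 6 and 21 sites of the Mediator subunit genes, black lines are medians, and grey bars run between the quartiles of the 1263 and 4486 other sites; the 1 kb points lie low except for Med8 at 14.5 and Med29 at 9.57.

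Of the head module, 5 of 7 genes (71.4%) had a site within 10 kb, against 22.4% of all genes. Med8 (chromosome 4, 118409282 to 118415824) was the only member with a site within 100 bp. The summit, at 118409357, lay 75 bp inside its lower end (the end of lower coordinate) and scored 14.5, the highest score of the 6 sites within 1 kb. Med6 (chromosome 12, 81573557 to 81595008) had the highest-scoring site of any member within 10 kb. It scored 18.5 and lay inside the gene at 81591612, 3.40 kb from the start, with no other protein-coding gene end closer than 23.1 kb.

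Med11 (chromosome 11, 70451918 to 70453732) had 3 sites within 10 kb, the most of any member. They scored 5.78 at 4.30 kb before its start, 2.72 inside the gene at 0.269 kb from its end, and 5.59 at 6.22 kb past that end. The last of these stood 29 bp inside the neighbouring Cxcl16, a chemokine gene, and the second 0.926 kb from it. At Med20 the nearest site scored 8.84 and stood 2.24 kb before the start, inside the ribosome assembly gene Bysl. The site of Med17, the central scaffold of the head, scored 10.8 at 9.57 kb beyond its start and lay inside 4931406C07Rik. Med18 and Med22 had their nearest sites at 26.9 and 42.1 kb.

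In the middle module, 5 of 10 genes (50%) had a site within 10 kb, against 22.4% of all genes. Med26, a subunit through which Mediator recruits elongation factors, was accompanied by a site scoring 5.02 at 0.768 kb before its start. A second one, of score 2.63, lay 1.65 kb past its end and 0.288 kb from Slc35e1. The site of Med31 scored 4.10 and lay inside the gene 0.391 kb from its start, but only 63 bp from an end of the overlapping gene 4930563E22Rik. Med14, the backbone that joins the modules and 1 of 2 members on chromosome X, had one scoring 4.23 at 1.66 kb past its end, where an end of another protein-coding gene was nearer. Med7 had one of score 14.8 at 7.22 kb past its end, and it stood 4.99 kb from Havcr2, the gene of the immune receptor TIM-3. Beyond the window, 2 further sites of scores 9.20 and 21.4 were inside Havcr2.

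Med1, the subunit contacted by nuclear receptors, had its site at chromosome 11, 98202696, with a score of 10.2. It lay 9.38 kb beyond the start of Med1 but 0.263 kb inside Cdk12, a kinase gene that acts on the polymerase during elongation. Of the other middle genes, Med19 had no site within 10 kb but 6 between 17.4 and 39.5 kb, with scores from 2.98 to 19.3. Each of the 6 was nearer an end of another protein-coding gene (Ctnnd1, Btbd18, Zdhhc5 or Clp1) than an end of Med19. Med21, Med4, Med9 and Med10 had none within 50 kb. Med10 was the most remote member, at 822.1 kb from the nearest site.

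In the tail module, 3 of 9 genes (33.3%) had a site within 10 kb, against 22.4% of all genes. Med16 (chromosome 10, 79894706 to 79908938) held a site scoring 3.95 at 0.262 kb downstream of its start. Another, of score 10.8, lay 6.44 kb beyond the start and inside R3hdm4. Med29 held a site scoring 9.57 at 0.874 kb before its end, and one of 7.23 stood 3.06 kb past that end. The latter was 2.96 kb from Zfp36, which encodes the mRNA decay factor tristetraprolin. Med30 had a site of score 8.78 at 7.17 kb beyond its lower end, with no other protein-coding gene within 100 kb. The nearest sites of Med24 and Med28 were 22.1 and 22.4 kb away. Med15, Med23 and Med25, which are bound directly by several activators, and Med27 had none within 50 kb.

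In the kinase module, 3 of 7 genes (42.9%) had a site within 10 kb, against 22.4% of all genes. None had one within 1 kb, where the share of all genes was 6.41%. With 7 genes, a count of 0 cannot be told apart from that share. At Cdk19 a site scoring 10.8 stood 1.47 kb beyond the lower end and a second, of 4.37, deep inside the gene. Its paralogue Cdk8 had 1 site, of score 4.23, inside the gene and 15.5 kb from the start. Ccnc, the cyclin partner of both kinases, held a site scoring 7.81 at 4.55 kb before its end, while Tstd3 was 2.01 kb from it. Med12 and Med13 had their nearest sites at 152.4 and 149.3 kb.

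The paralogues of Med12 and Med13 held most of the sites found inside members, 11 of 20. They are also the longest members, at 313.0 kb (Med12l) and 205.1 kb (Med13l), where the median member was 18 kb long. Med13l (chromosome 5, 118560330 to 118765438) had a site of score 9.75 at 3.88 kb before its start and 3 inside, with scores of 4.25, 24.1 and 8.64. The one of 24.1, at 118633190, was the highest score at any member. No other protein-coding gene lay within 100 kb of Med13l. Med12l (chromosome 3, 59005419 to 59318446) had 8 sites inside, with scores from 6.22 to 18.5, but none within 10 kb of an end, the nearest being 23.4 kb past it. At least 8 sites inside the gene were counted in 28 of 21631 protein-coding genes (0.129%), and in 15 of the 557 that are longer than 300 kb, as Med12l is (2.69%). Other protein-coding genes stand inside Med12l, and an end of P2ry12, P2ry13 or P2ry14, which encode purinergic receptors, was nearer to each of the 8 sites than an end of Med12l. They were P2ry12 for 4 sites, P2ry13 for 3 and P2ry14 for 1.

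**Figure D3:**
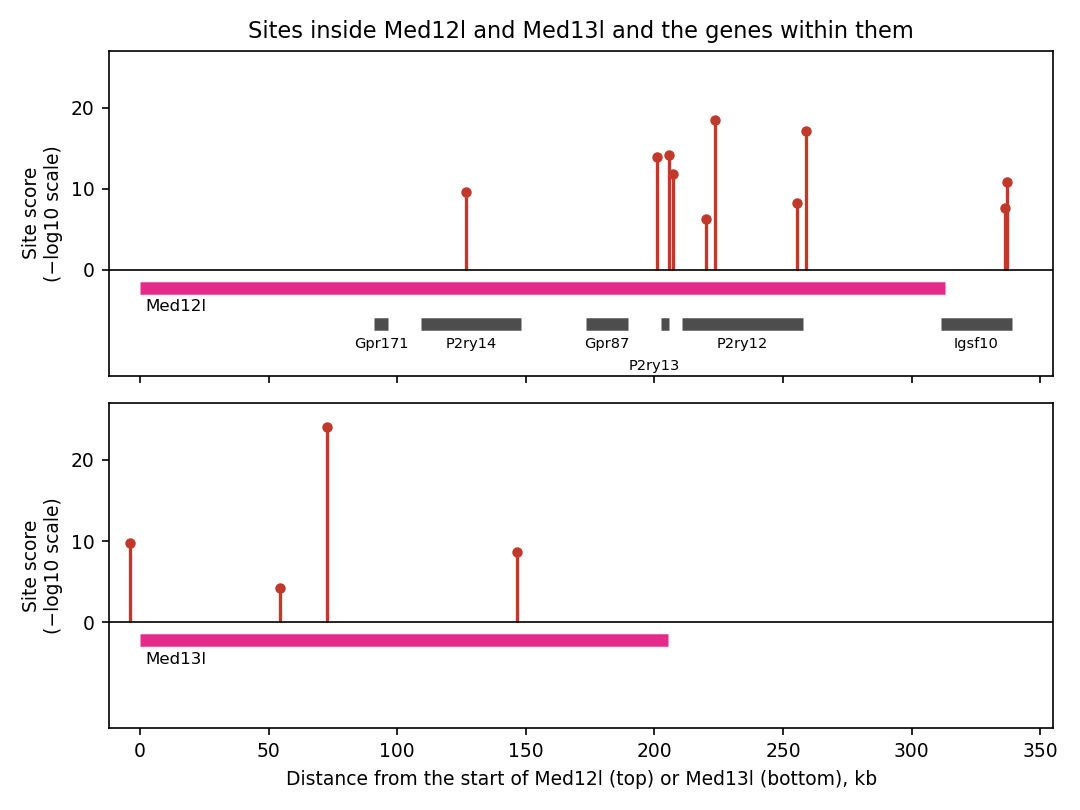
Sites by position along Med12l and Med13l (horizontal axis, kb from the start of the gene) with their scores (vertical axis, −log10 scale). Coloured bars are the members and dark bars other protein-coding genes that overlap them; 7 of the 8 sites inside Med12l stand at P2ry13 and P2ry12, while the 3 inside Med13l have no other protein-coding gene beside them.

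The 2 members just inside the 10 kb limit were Med17 at 9.57 kb and Med1 at 9.38 kb, and the 2 just outside were Cdk8 at 15.5 kb and Med19 at 17.4 kb. Of the 16 members with a site, 12 had 1, 3 had 2 (Med16, Med26 and Med29) and 1 had 3. At least 2 sites within 10 kb were thus seen at 4 of 33 members (12.1%), against 5.41% of all genes.

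**Figure D4:**
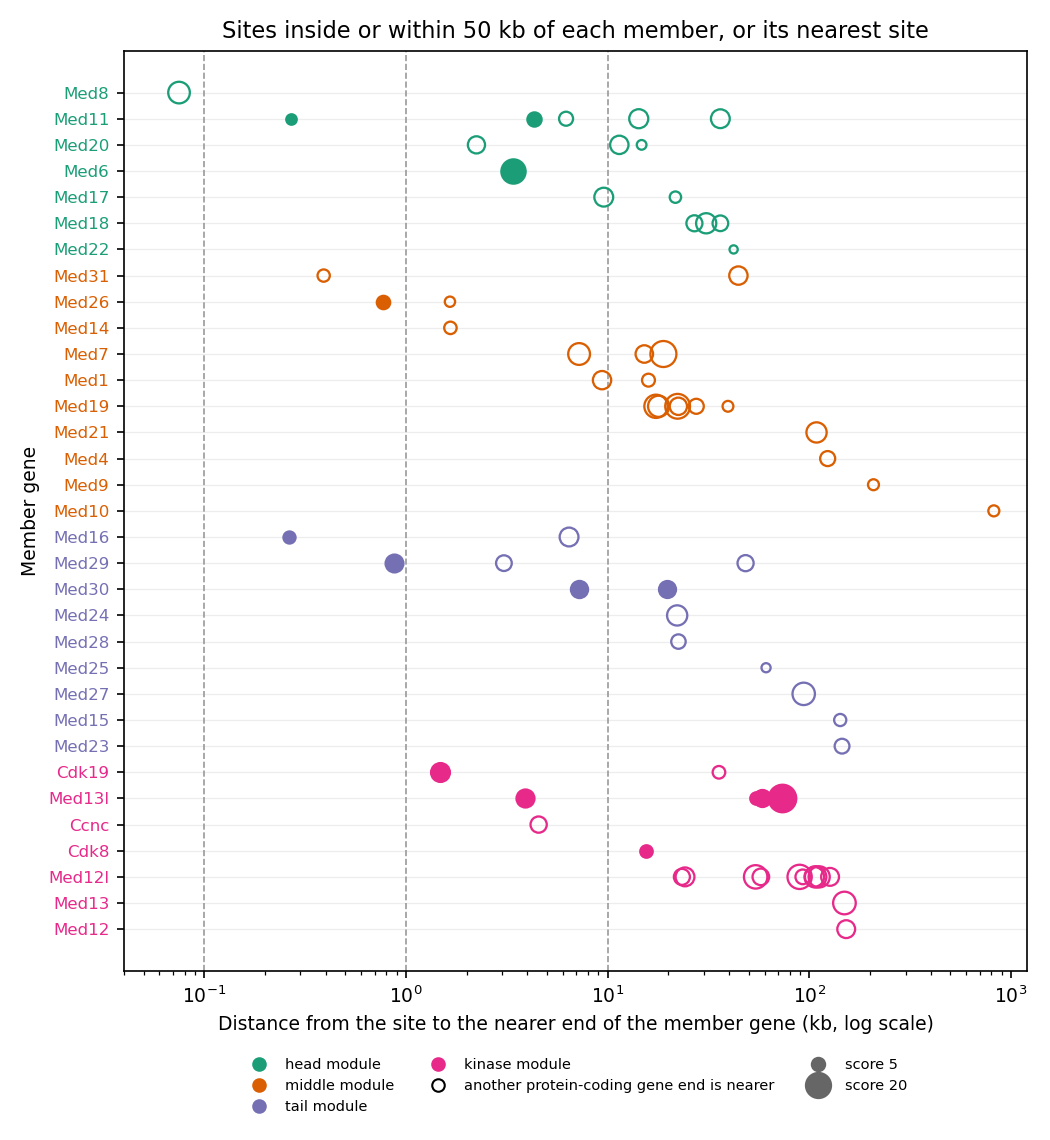
Every site inside or within 50 kb of each Mediator subunit gene, or its nearest site where there is none. The horizontal axis is the distance to the nearer end of the member (kb, log scale), each row is a gene coloured by module, point size grows with the score, and open points have an end of another protein-coding gene nearer; only the Med8 site lies left of 0.1 kb.

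Sites near members lay at either end of the gene. The orientation was known for 28 members, of which 5 had a site within 1 kb. It was nearer the start at 3 (Med16, Med26 and Med31) and nearer the other end at 2 (Med11 and Med29). Med8, the member with the closest site, is not among these 5, as its orientation was not known. Among other protein-coding genes of known orientation with a site within 1 kb, 917 of 1099 (83.4%) had it nearer the start. With only 5 members, these counts cannot show whether members differ from that share. Within 10 kb the counts were 8 of 13 members (61.5%) and 63.8% of the other genes. Counted from the start alone, 3 of 28 members (10.7%) had a site within 1 kb, against 5.36% of all genes of known orientation, and 10 of 28 (35.7%) had one within 10 kb, against 16.9%.

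No summit fell within the window from 250 bases before to 50 after the start of any of the 28 members with a RefSeq promoter sequence (build GRCm38.p6). Windows of other genes did hold summits near or inside members, 3 in all. The one not printed here, of score 4.23, lay in the window of 1810030O07Rik near Med14. For the other 2 the stretch is printed on its gene's strand, because it gives the DNA under a called site. Capitals mark GAGGAA, the form of the ETS core that PU.1 favours, in the first and TTCC, the reverse complement of the bare core GGAA, in the second. The first is the 100 bases before the start of P2ry13, inside Med12l, at chr3:59210883-59210982 (minus strand, site score 14.2). The second lies at chr11:98202682-98202711 (minus strand) before the noncoding gene Gm38963 and inside Cdk12, and is the site nearest Med1.
P2ry13: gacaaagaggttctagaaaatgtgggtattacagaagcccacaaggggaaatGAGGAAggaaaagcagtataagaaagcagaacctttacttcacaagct
Gm38963: cgcgatacttggcgcTTCCcttttcacctc

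The summit is base 66 of the first stretch and base 16 of the second, so that in each an ETS core stands close to the summit or under it. In the whole list, 541 summits fell in promoter windows of the table at least 20 bases from the window's edge. A GGAA on either strand lay within 20 bases of 486 of them (89.8%), whereas 38.1% of all positions of the 32619 windows were that close to one. For GAGGAA the shares were 27.7% and 4.42%. Of the 3 summits near or inside members, all 3 had a GGAA that close and 1 had a GAGGAA. A match of letters is a description and not a measured contact.

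CCGGAA, the form of the core preferred by ETS factors such as GABP and ELK, was found on either strand in 13 of 28 member promoters (46.4%), against 19.3% of all protein-coding promoters in the table. GAGGAA stood in 7 of 28 (25%), against 27.2%. The longer form GAGGAAGT stood in 0 of 28, against 3.17%, and CCGGAAGT in 3 of 28, against 5.34%. Those 3 were Med15, Med17 and Med18, none with a site within 1 kb, and the 30 bases around each match are shown with the match in capitals. They lie at chr16:17722929-17722958, chr9:15280004-15280033 and chr4:132463897-132463926, all read on the minus strand, the strand of the gene.
Med15: attcttcctgtACTTCCGGcgtggcccagt
Med17: agcccggtcagCCGGAAGTtcctggctctc
Med18: tcagcttcctaCCGGAAGTgctgaagggag

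Med15 holds the match as its reverse complement, and each longer match also contains CCGGAA and GGAA. The bare core GGAA was in 25 of 28 member promoters, against 95.7% of all. Of the other motifs searched on both strands, GGGCGG, the GC box of Sp1, stood in 18 of 28 (64.3%, against 46.9% of all). CCAAT, bound by NF-Y, stood in 11 (39.3%, against 39.6%) and TATAAA in 3 (10.7%, against 13.4%). CACGTG was in 4 (14.3%, against 8.01%), GCATGCGC, an NRF1 motif, in 3 (10.7%, against 3.64%), TGACGTCA in 1 (3.57%, against 2.36%) and CTACAATTC in 1 (3.57%, against 0.521%).

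Most member promoters were rich in CpG. The observed over expected CpG ratio was at least 0.6 in 24 of 28 member windows (85.7%), against 48.9% of those of other protein-coding genes, with medians of 0.841 and 0.585. Among other genes, CpG content went with the share near a site: 28.2% of those with a ratio of at least 0.6 and 17.1% of those below it had a site within 10 kb. Among members, 11 of 24 (45.8%) and 2 of 4 (50%) had one within 10 kb. Within 1 kb the counts were 3 of 24 (12.5%) and 2 of 4 (50%), where other genes had 8.44% and 4.39%. With only 4 members below 0.6, these counts cannot show whether CpG content went with the share among members. The part of CpG content in the members' share was not tested.

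The other genes of the transcription machinery were read the same way, in 5 lists of 88 genes. A site lay within 10 kb of 27 (30.7%) and within 1 kb of 8 (9.09%), against the 22.4% and 6.41% of all genes. The elongation list came closest to Mediator, with 10 of 23 (43.5%) within 10 kb and 4 within 1 kb. The latter included Cdk12 (score 10.2, the site nearest Med1) and Ell (score 10.1 at 0.380 kb from an end), a factor that speeds the polymerase. General transcription factors had 7 of 18 (38.9%), among them Ccnh, the cyclin of the TFIIH kinase (7.29 at 0.706 kb), and Tbp, the TATA-binding protein (4.29 at 38 bp). Of the list of Taf genes, which takes in those of the RNA polymerase I factor, 8 of 23 (34.8%) had a site, with Taf5 the only one within 1 kb (11.3 at 0.156 kb). RNA polymerase II subunits had 1 of 13 (7.69%), Polr2h, with a site of 8.20 at 76 bp. Coactivators and cohesin had 1 of 11 (9.09%) within 10 kb and 0 within 1 kb. These differences between lists were not tested.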

How the data were processed

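PU.1 ChIP-seq was done on 3 PU.1 high and 2 PU.1 low libraries. The submitters' processing notes name build mm10, CASAVA 1.8.2 and MACS2. Aligner, read filters, MACS2 settings and how technical replicates were pooled are not stated there. The authors deposited for every summit a score on a −log10 scale, without saying whether of p or q. The direction, high against low, is read from the peak names.

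Positions are 1-based. Gene ends, orientation and promoter sequences came from RefSeq tables of GRCm38.p6, whose coordinates are those of mm10. The gene table gives no exons, so exon and intron are not told apart. Promoter sequences matched 28 of the 33 members (not Cdk19, Med8, Med23, Med24 and Med30), 1 window per gene at its outermost start. Distances are from a summit to the nearer end of a gene, computed with Python 3.11.15, pandas 2.3.3 and SciPy 1.17.1. The distance code was checked on simulated sites. A site counts for every gene in its window, and depth per library is unknown. The members and lists were chosen with earlier results of these data known. All members are named, and in each machinery list the 2 with the highest-scoring site within 1 kb. Genes named as neighbours are those with the nearest end, and some items are not reported here. The CpG classes and the motif counts at summits were added after the data were seen. Alternatives were a minimum score of 5 or 10, the nearest gene only, gene starts only, 2 reduced member sets, and sites inside genes.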

Additional observations from a re-analysis of the deposited data

How the results depend on the processing

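Of the 28 values recomputed, 15 stayed within 1.5 times the reported count (or within 1 SD for the median score) and 13 moved further. Within 100 bp, the count of 1 member became 0 with the nearest gene end only, 0 with gene starts only, since the orientation of Med8 was not used, and 11 when sites anywhere inside the gene were counted. The share of all genes went from 2.13% to 2.02%, 2.01% and 17.6%. Within 1 kb, the 6 members became 3 at a score of at least 5, 1 at a score of at least 10, 3 of 28 with gene starts only and 12 with sites inside the gene. The share of all genes went from 6.41% to 4.93%, 2.05%, 5.36% and 19.4%. Within 10 kb, the 16 members became 7 at a score of at least 10, 8 with the nearest gene end only and 10 of 28 with gene starts only. The share of all genes went from 22.4% to 9.08%, 16.5% and 16.9%. Leaving out Cdk8, Cdk19 and Ccnc, or Med12l, Med13l and Cdk19, gave 14 of 30 each. The 3 of 5 members whose site within 1 kb lay nearer the start became 1 of 2 when sites had to score 5. When sites had to score 10, no member of known orientation had one within 1 kb. The median score of 4.56 became 14.5 within 100 bp, where it rests on Med8 alone. No paired analysis was possible because each site has 1 score for all libraries, and leaving out single libraries could not be tried either.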
